A study of Homo sapiens with 8 samples.

Results

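The genes described here encode the AP-1 family of basic leucine zipper (bZIP) transcription factors and a small MAF protein. They are JUN, JUNB and JUND, the FOS relatives FOS, FOSB, FOSL1 and FOSL2, ATF3, JDP2 and MAFF. The 10 genes were taken by symbol from the deposited expression table, which holds 57773 gene features, and all 10 were found there. The measurements came from C4-2, an androgen-independent prostate cancer line derived from LNCaP cells. C4-2 cells in serum-containing T medium were kept for 24 h with PBS vehicle, with 5 mM metformin or with 1 mM phenformin, in 3, 3 and 2 libraries, and all 3 groups share this line and medium. Metformin is a biguanide used against diabetes, and phenformin is a more lipophilic biguanide. Expression was measured by mRNA sequencing and given as RPKM, the reads of a gene scaled to the length of its exons and to the mapped reads of the library. The treatment protocol in the labels names PBS and metformin, whereas phenformin and its dose come from the sample titles and condition labels.

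AP-1 is a dimer. JUN proteins pair with each other or with FOS proteins, which cannot pair among themselves, and the dimers bind the letters TGANTCA or, with ATF partners, the cAMP response element TGACGTCA. JUN and FOS are immediate early genes, whose transcription is switched on by stress or growth signals without new protein synthesis, and JUN activity is raised further when JNK phosphorylates the protein. ATF3 and JDP2 share the dimerization surface but lack a strong activation domain and often repress, and small MAF proteins such as MAFF bind DNA through a related zipper and have no activation domain.

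One control library stands apart. By totals inferred from ratios of RPKM values between libraries, up to a factor that all share, PBS replicate 1 held 44774670 mapped reads. This was 2.93 times the median of the other 7 libraries, which held 13837455 to 15898491. Over features with at least 20 and under 200 reads in a pair of libraries, the median squared difference between PBS replicate 1 and PBS replicates 2 and 3 was 0.816 and 0.84 of its counting expectation, whereas the other same-group pairs gave 1.39 to 1.58. PBS replicate 1 therefore differed from the other PBS libraries by less than separately sampled reads would, and the 3 PBS libraries may not be 3 separate samples. The comparisons with PBS were also made without this library and with it reduced to the 15680766 reads beyond those of the other PBS replicates. Nothing in the labels or methods says that replicates were separate cultures, and the p-values therefore reflect only library-to-library variation, possibly technical. The 9 prostate luminal markers checked (KLK3 and others) were each above 1 RPKM in every library. Summed over these markers, RPKM ranged from 1313 to 1471 in PBS libraries, 488 to 539 in metformin libraries and 636 to 662 in phenformin libraries, and its part in the AP-1 results was not tested. The 5 immune markers and the 3 endothelial markers found were under 1 RPKM in every library, as were 4 of 5 basal and 6 of 7 neuroendocrine markers. The 7 stromal markers summed to 5.89 to 6.61 RPKM in PBS libraries, 10.3 to 12.1 in metformin libraries and 8.5 and 8.53 in phenformin libraries, with 4 or 5 of them under 1 RPKM in each library. VIM, also expressed by many carcinoma lines, made up most of that, with means of 3.97, 8.82 and 4.99 RPKM, and COL1A1 had 1.25, 1.24 and 2.67 RPKM, while DCN and COL1A2 were near 0. The part of these markers in the AP-1 results was not tested.

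Promoter sequences of 9 of the 10 genes were matched by symbol in the RefSeq table of GRCh38.p14. The windows of the 4 genes that held a match to the motifs searched are shown, and capitals mark the matches. FOS, FOSL2 and JDP2 also moved with treatment and held no match. Each window is the 250 bases before the annotated start, written 5′ to 3′ on the strand of the gene.
JUN (chr1:58784048-58784297, strand -): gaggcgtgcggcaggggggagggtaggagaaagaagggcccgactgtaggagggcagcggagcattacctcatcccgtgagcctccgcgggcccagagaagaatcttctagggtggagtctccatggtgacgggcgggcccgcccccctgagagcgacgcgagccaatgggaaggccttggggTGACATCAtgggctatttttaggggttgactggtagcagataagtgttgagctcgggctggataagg
JUND (chr19:18281623-18281872, strand -): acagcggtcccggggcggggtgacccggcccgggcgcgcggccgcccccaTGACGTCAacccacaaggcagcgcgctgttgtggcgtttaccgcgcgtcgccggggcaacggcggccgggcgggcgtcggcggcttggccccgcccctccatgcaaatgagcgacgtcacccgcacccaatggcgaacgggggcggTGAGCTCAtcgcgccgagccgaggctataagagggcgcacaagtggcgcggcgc
ATF3 (chr1:212565157-212565406, strand +): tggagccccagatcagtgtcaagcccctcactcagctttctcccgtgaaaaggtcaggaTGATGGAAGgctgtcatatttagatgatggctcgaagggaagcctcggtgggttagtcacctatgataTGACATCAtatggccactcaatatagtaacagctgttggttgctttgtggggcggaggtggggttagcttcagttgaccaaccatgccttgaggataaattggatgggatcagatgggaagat
MAFF (chr22:38201744-38201993, strand +): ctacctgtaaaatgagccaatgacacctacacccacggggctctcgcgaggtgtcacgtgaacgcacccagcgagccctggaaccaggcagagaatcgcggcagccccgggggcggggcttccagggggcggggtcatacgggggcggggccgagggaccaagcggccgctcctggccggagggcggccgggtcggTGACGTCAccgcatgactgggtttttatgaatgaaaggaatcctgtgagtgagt
The JUN window holds TGACATCA, a variant of the AP-1 element that begins 67 bases before the start and is known as a site for JUN dimers with ATF2. ATF3 has the same letters 123 bases before its start, and TGATGGAAG, a match to the C/EBP and ATF composite element TGATGNAAN, lies 191 bases before it. The full cAMP response element TGACGTCA begins 200 bases before the JUND start and 54 bases before the MAFF start. JUND also has TGAGCTCA, 54 bases before its start. Both strands were searched for the AP-1 element TGACTCA and its looser form TGANTCA, which includes it. The other searches were for TGACGTCA and its looser form TGANNTCA, which includes both TGACGTCA and TGACATCA, for the composite TGATGNAAN and for the CArG box of SRF. TGACATCA was searched on its own only after it had been seen in the JUN and ATF3 windows. Of 35116 promoters of the same length, 4.2% held TGACTCA, 1.65% TGACGTCA, 6.57% TGANTCA, 10.1% TGANNTCA, 3.13% TGATGNAAN, 2.37% TGACATCA and 1.16% the CArG box. None of these letters occurred in the windows of JUNB, FOS, FOSB, FOSL2 and JDP2, which says nothing of sites outside 250 bases. Nor does it exclude sites inside the windows, since near matches to TGACGTCA were not searched. As examples, the FOS window holds TGACGTTT, the FOSB window TGACGTAA and the FOSL2 window TGACGTGA. The table gives 1 start a gene, and ATF3 is known to use more than one promoter.

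Metformin raised the mRNA of 7 AP-1 genes, led by ATF3 and JUN, and the same 7 were raised by phenformin. JUND, FOSL2, JDP2, FOS and MAFF had smaller log2 changes than ATF3 and JUN with metformin. JUNB, FOSB and FOSL1 were at or near 0 in every library and were not tested. Genes with at least 1 RPKM in enough libraries (3 of 6 for metformin, 2 of 8 for phenformin) were compared with limma on log2(RPKM + 0.1), with adjustment over all genes tested and a limit of 0.05. In the metformin comparison 82.9% of the 11730 genes tested passed, 28.2% higher and 54.8% lower, and the 7 AP-1 genes tested were all higher. Of all genes tested, 8.45% passed and were at least 2-fold higher, as were all 7 of these. The PBS and metformin libraries of all 7 did not overlap, which 29% of the genes tested also showed in the higher direction. With phenformin 76.5% of 12172 genes passed, 31.2% higher and 45.4% lower, and again the 7 AP-1 genes were all higher, at least 2-fold. The share of all genes that were higher at least 2-fold was 7.73%, and 35.2% of genes had phenformin libraries wholly above the PBS libraries, as these 7 did. FOS and MAFF were under 1 RPKM in every PBS library and entered the metformin test only through the metformin libraries, so they had to differ there. The metformin libraries alone would have met their entry to the phenformin test, and both phenformin libraries were above 1 RPKM as well. No PBS library was, so both genes entered only through groups where they are high. The median change of all genes was -0.30 on the log2 scale with metformin and -0.15 with phenformin, and the AP-1 changes below are given without removing it. In bulk RNA fewer cells of a kind and less RNA per cell cannot be told apart.

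**Figure D1:**
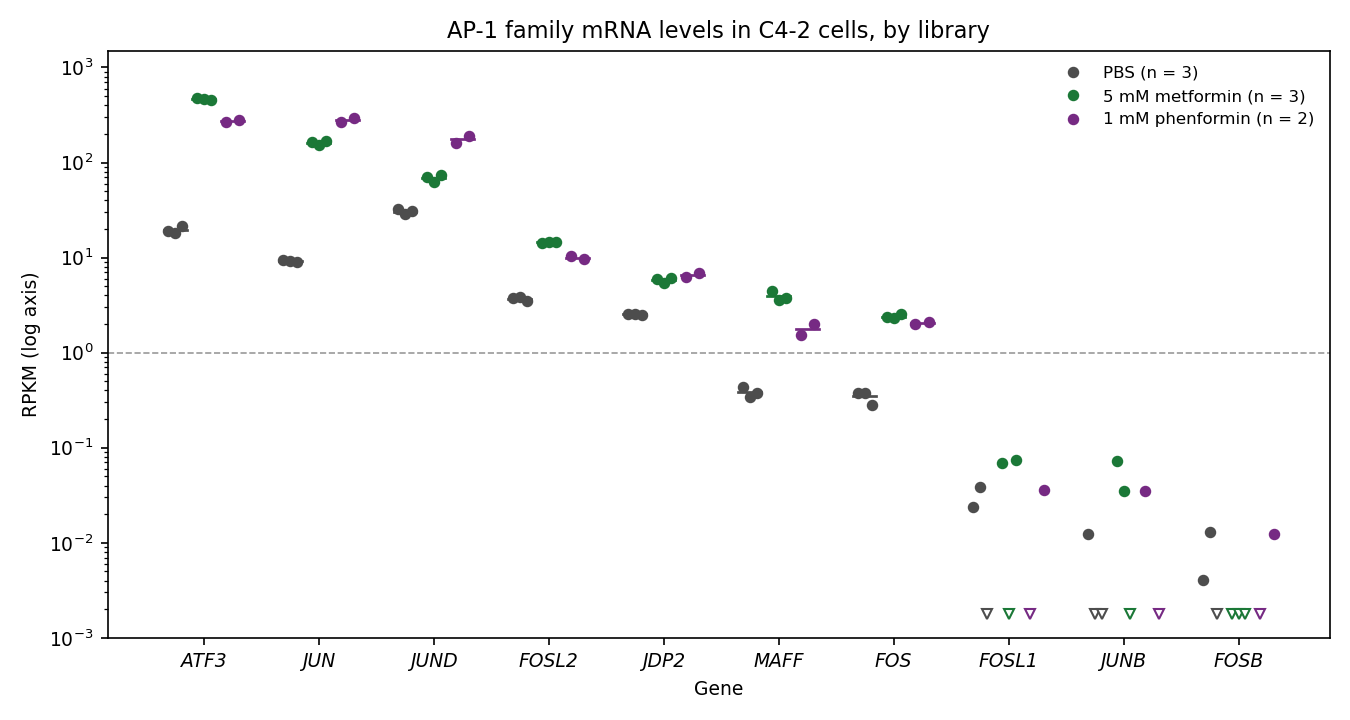
RPKM of the 10 genes (log axis) in each library; filled circles are libraries, short lines are group means, open triangles at the bottom are libraries with 0 reads, and the dashed line is 1 RPKM. For the 7 genes from ATF3 to FOS every treated library lies above every PBS library, whereas FOSL1, JUNB and FOSB reach at most 0.0748 RPKM.

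JUN, the central subunit that can form AP-1 alone or with any FOS protein, was measured at 9.39, 9.12 and 8.98 RPKM with PBS. Its level was 163, 154 and 168 RPKM with metformin and 264 and 297 RPKM with phenformin. The 3 groups did not overlap, and the highest PBS library was far below the lowest treated one. Among all features, JUN moved from ranks 4307 to 4387 in the PBS libraries to ranks 94 to 101 with metformin and 56 and 62 with phenformin. The mean rose from 9.16 ± 0.208 (SD, n = 3) to 161.6 ± 6.7 RPKM (n = 3) with metformin, a ratio of 17.6, and the log2 change was 4.13 ± 0.046 (SE; limma adjusted p = 3.9e-09). With phenformin the mean was 281 ± 23.1 RPKM (SD, n = 2), 30.7 times that of PBS, with a log2 change of 4.92 ± 0.059 (SE; limma adjusted p = 5.2e-10). By size of rise JUN ranked 30 of 11730 genes with metformin and 12 of 12172 with phenformin. The changes rest on 1396, 419 and 455 reads in the PBS libraries and on 7896 to 14422 in the treated ones. Without PBS replicate 1 they were 4.14 and 4.94.

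JUND, the JUN relative usually expressed steadily in resting cells, had the highest level of the family in untreated cells. It stood at 32.4, 28.7 and 30.6 RPKM with PBS and at 70.6, 62.6 and 74.8 RPKM with metformin. In the phenformin libraries it reached 160.4 and 192 RPKM, above every metformin library. The log2 change was 1.18 ± 0.074 (SE; limma adjusted p = 2.3e-06) with metformin and 2.52 ± 0.096 (SE; limma adjusted p = 1.0e-07) with phenformin. JUND thus ranked 749 of 11730 by size of rise with metformin and 95 of 12172 with phenformin.

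JUNB, a JUN relative that activates weakly at single AP-1 sites and is itself often an immediate early gene, gave 1, 0 and 0 reads in the PBS libraries. It gave 2, 1 and 0 reads with metformin and 1 and 0 with phenformin. The highest level was 0.0717 RPKM, while 3 reads, the limit that a count of 0 allows, correspond to 0.0369 to 0.119 RPKM. No difference was detectable at this depth. Tested with no filter on low values, the limma adjusted p for JUNB was 0.2 with metformin and 0.63 with phenformin. In RefSeq, on another build, JUNB overlaps HOOK2, and no source used here states whether strand was used in counting, so the JUNB values are uncertain.

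FOS, the classical immediate early partner of JUN, was low in all libraries. Its PBS levels of 0.379, 0.379 and 0.283 RPKM rest on 55, 17 and 14 reads. It was measured at 2.35, 2.31 and 2.53 RPKM with metformin and at 1.98 and 2.09 RPKM with phenformin, from 99 to 119 reads a library. All treated libraries were above all PBS libraries, yet FOS stayed far below JUN in each of them. The mean RPKM was 6.9 times that of PBS with metformin and 5.87 times with phenformin. On the log2(RPKM + 0.1) scale, which understates the change of low genes, FOS rose by 2.49 ± 0.14 (SE; limma adjusted p = 1.2e-06) and 2.26 ± 0.14 (SE; limma adjusted p = 1.1e-06). These sizes depend on the scale, since a pseudocount of 1 gave 1.33 and 1.17 and quantile normalization 3.24 and 2.85.

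FOSL2 (FRA-2), a FOS relative that lacks the strong activation domain of FOS, was the most abundant FOS protein mRNA in every library. It was at 3.72, 3.83 and 3.48 RPKM with PBS, at 14.1, 14.5 and 14.7 RPKM with metformin and at 10.3 and 9.66 RPKM with phenformin. The groups did not overlap, and the metformin libraries were the highest. FOSL2 rose by 1.94 ± 0.055 (SE; limma adjusted p = 5.7e-08) with metformin and by 1.42 ± 0.059 (SE; limma adjusted p = 1.5e-07) with phenformin, both on the log2 scale. An antisense RNA, FOSL2-AS1, overlaps FOSL2 in RefSeq.

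FOSB and FOSL1 (FRA-1) were near 0. FOSB gave 1, 1 and 0 reads with PBS, none in the 3 metformin libraries and 0 and 1 with phenformin, where 3 reads would be 0.0121 to 0.039 RPKM. FOSL1, a FOS relative often abundant in invasive carcinoma lines, gave 2, 1 and 0 reads with PBS, 2, 0 and 2 with metformin and 0 and 1 with phenformin. Neither gene showed a detectable difference at this depth. With no filter on low values the limma adjusted p with metformin was 0.5 for FOSB and 0.42 for FOSL1, and with phenformin it was 1 and 0.97.

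ATF3, a stress-inducible bZIP protein that can dimerize with JUN, had the largest rise of the family with metformin. It was measured at 19.3, 18.1 and 21.3 RPKM with PBS, at 483, 469 and 458 RPKM with metformin and at 269.9 and 278 RPKM with phenformin. The groups did not overlap, with metformin above phenformin and both far above PBS. ATF3 ranked 1715 to 2083 among all features in the PBS libraries, 23 to 30 with metformin and 59 and 61 with phenformin. The mean rose from 19.5 ± 1.66 (SD, n = 3) to 469.9 ± 12.6 RPKM (n = 3) with metformin, a ratio of 24. That is a log2 change of 4.58 ± 0.064 (SE; limma adjusted p = 7.4e-09), which ranked 17 of 11730 by size of rise. With phenformin the mean was 274 ± 5.81 RPKM (SD, n = 2) and the log2 change 3.81 ± 0.067 (SE; limma adjusted p = 2.6e-09), which ranked 22 of 12172. Left without PBS replicate 1, the ATF3 changes were 4.57 and 3.80.

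JDP2, a repressor that pairs with JUN proteins and ATF2, was measured at 2.53, 2.54 and 2.51 RPKM with PBS, values closer together than those of any other tested family member. They rest on 705, 219 and 239 reads, for which counting error alone would allow a wider spread. JDP2 stood at 5.95, 5.35 and 6.16 RPKM with metformin and at 6.31 and 6.83 RPKM with phenformin. Every treated library was above every PBS library, and both phenformin libraries were above the metformin ones by a small margin. JDP2 rose by 1.17 ± 0.071 (SE; limma adjusted p = 1.8e-06) with metformin and by 1.34 ± 0.075 (SE; limma adjusted p = 6.8e-07) with phenformin on the log2 scale. The lncRNA JDP2-AS1 overlaps it in RefSeq.

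MAFF, a small MAF protein that pairs with CNC factors such as NFE2L2, was at 0.435, 0.340 and 0.374 RPKM with PBS, from 58, 14 and 17 reads. It was at 4.42, 3.61 and 3.79 RPKM with metformin and at 1.54 and 2.00 RPKM with phenformin. The groups did not overlap, and the metformin libraries were the highest. MAFF rose by 3.06 ± 0.13 (SE; limma adjusted p = 2.8e-07) with metformin and by 1.95 ± 0.15 (SE; limma adjusted p = 5.0e-06) with phenformin on the log2 scale. A pseudocount of 1 lowered these changes to 1.83 and 1.00, and quantile normalization gave 3.77 and 2.58. In RefSeq MAFF overlaps TMEM184B, which reached 13, 13.7 and 12.7 RPKM at most in the 3 groups, so the low PBS values of MAFF are uncertain where reads of both were not told apart by strand.

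The 2 exposures differed in the size of the rise. Phenformin at 1 mM gave more JUN and JUND mRNA than metformin at 5 mM, and metformin gave more ATF3, FOSL2 and MAFF. The doses differ, so the comparison is between these exposures and not between the compounds, and both share the PBS libraries. In the direct comparison 65.1% of 12172 genes passed, 39.5% higher and 25.6% lower with phenformin, against 2 AP-1 genes higher, 3 lower and 2 that did not pass. The median change of all genes was 0.13. Phenformin libraries lay wholly above the metformin libraries for JUN, JUND and JDP2 and for 45.7% of all genes, and wholly below them for ATF3, FOSL2, MAFF and FOS and for 30.2% of all genes. JUN was 0.80 higher (95% interval 0.66 to 0.93; limma adjusted p = 1.1e-05) and JUND 1.34 higher (1.12 to 1.56; limma adjusted p = 9.3e-06) with phenformin on the log2 scale. For ATF3 the difference was -0.78 (-0.93 to -0.62; limma adjusted p = 2.2e-05), for FOSL2 -0.53 (-0.66 to -0.39; limma adjusted p = 8.9e-05) and for MAFF -1.12 (-1.46 to -0.77; limma adjusted p = 0.00026). FOS gave -0.22 (-0.54 to 0.09; limma adjusted p = 0.18). JDP2 gave 0.17, with an interval not adjusted for the number of genes of 0.0031 to 0.35 and a limma adjusted p of 0.069. The FOS difference passed after quantile normalization (-0.36, adjusted p = 0.035), and the JDP2 difference passed on the TPM scale (0.17, adjusted p = 0.036) and without metformin replicate 3 (0.22, adjusted p = 0.041).

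**Figure D2:**
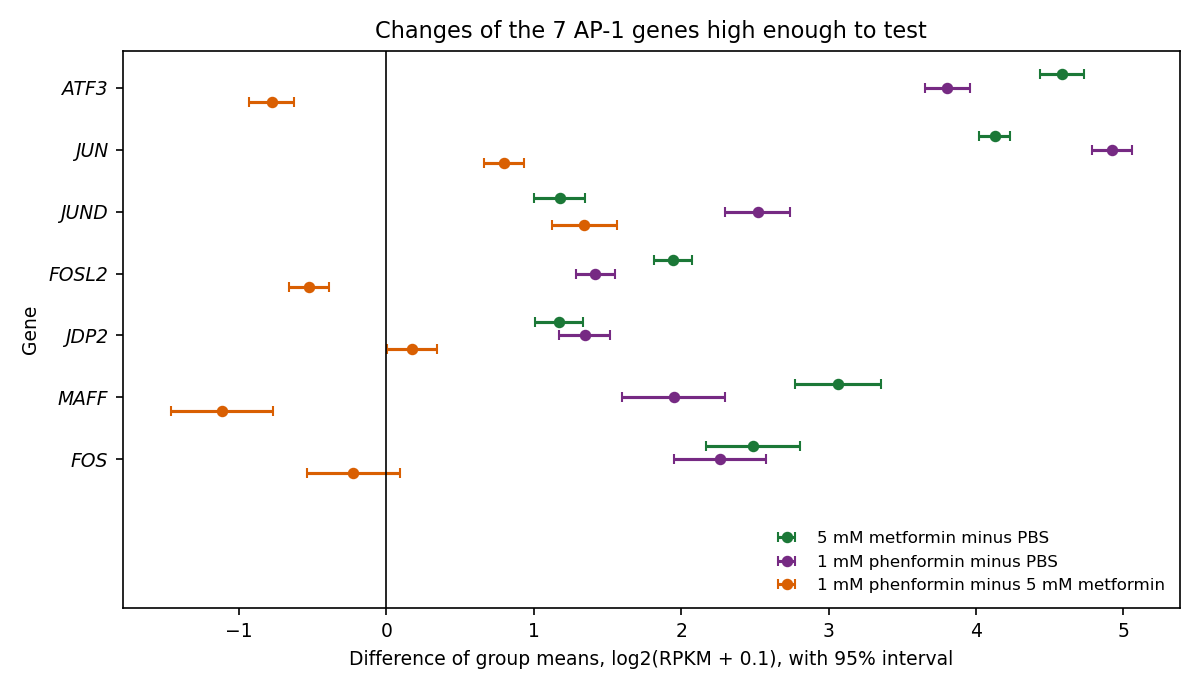
Differences of group means on the log2(RPKM + 0.1) scale, with 95% intervals from limma, for the 7 AP-1 genes tested; colours mark the 3 comparisons. All differences from PBS lie above 0, while phenformin minus metformin runs from -1.12 for MAFF to 1.34 for JUND.

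The make-up of AP-1 mRNA changed with both exposures. The 10 genes summed to 68.1, 63 and 67.5 RPKM with PBS, to 743, 712 and 728 RPKM with metformin and to 715 and 788 RPKM with phenformin. The metformin and phenformin sums overlapped, whereas the genes behind them differed. In PBS libraries JUND made up 45.3% to 47.5% of the sum, in metformin libraries 8.79% to 10.3%, and in the phenformin libraries 22.4% and 24.3%. ATF3 took 28.3% to 31.6% with PBS, 62.9% to 65.9% with metformin and 37.8% and 35.3% with phenformin. The share of JUN was 13.3% to 14.5% with PBS, 21.7% to 23.1% with metformin and 37% and 37.7% with phenformin. The mRNAs of JUN proteins together reached 217 to 243 RPKM with metformin and 425 and 489 RPKM with phenformin, from 37.8 to 41.8 with PBS. Those of FOS proteins together stayed much lower, at 3.76 to 4.26, 16.6 to 17.3, and 12.3 and 11.8 RPKM in the same order.

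**Figure D3:**
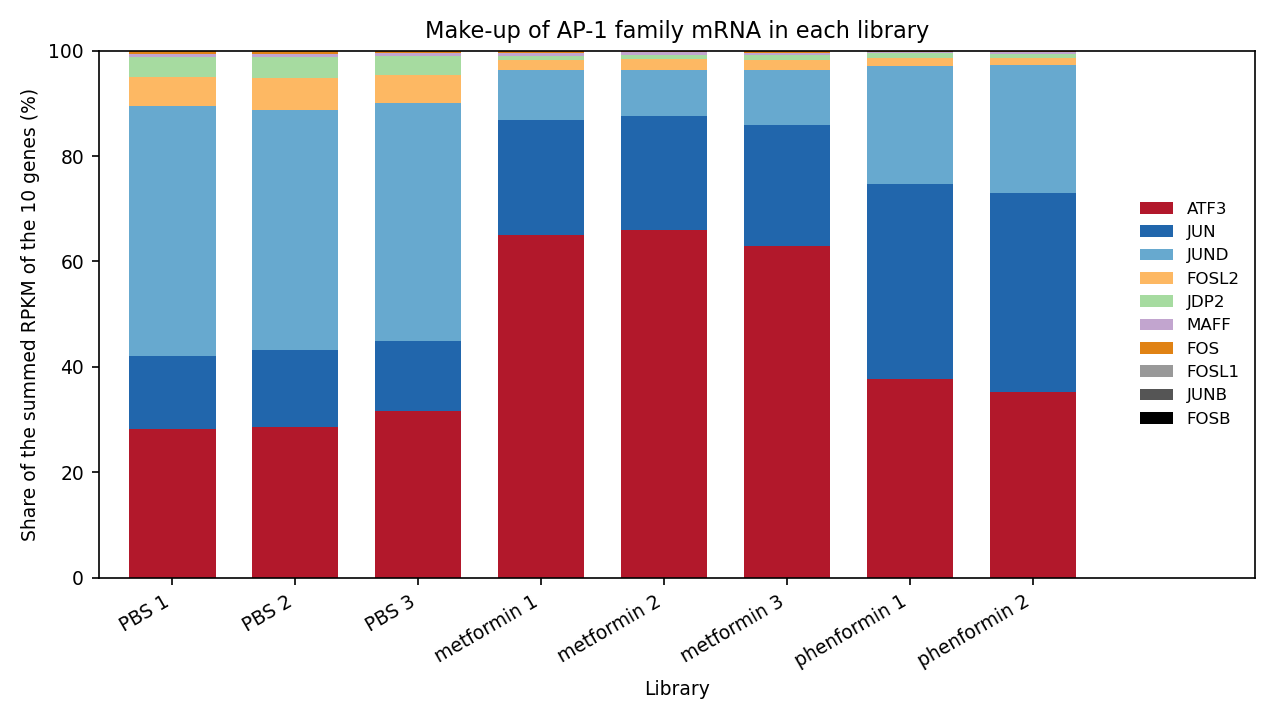
Share of the summed RPKM of the 10 genes (percent) taken by each gene in each library, as stacked bars. The JUND band is 45.3% to 47.5% of the bar with PBS, ATF3 is 62.9% to 65.9% with metformin, and JUN and ATF3 are within 3 points of each other in both phenformin libraries.

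By level per exon length, the order with PBS was JUND, ATF3, JUN, FOSL2, JDP2 and then MAFF and FOS, whose libraries overlapped. With metformin it was ATF3, JUN, JUND, FOSL2, JDP2, MAFF and FOS, with no overlap between neighbours. JUN and ATF3 overlapped at the top with phenformin, followed by JUND, FOSL2, JDP2 and then FOS and MAFF, which overlapped. Ratios within a library do not depend on a factor that scales the whole library. ATF3 over JUN was 2.05, 1.98 and 2.38 with PBS, 2.97, 3.04 and 2.73 with metformin and 1.02 and 0.936 with phenformin. JUN over JUND was 0.290, 0.318 and 0.294 in the PBS libraries, 2.30, 2.47 and 2.24 in the metformin libraries and 1.65 and 1.55 in the phenformin libraries. ATF3 over JUND was 0.595 to 0.698 with PBS, 6.12 to 7.49 with metformin and 1.68 and 1.45 with phenformin. FOSL2 over FOS was 9.81 to 12.3 with PBS, 5.8 to 6.27 with metformin and 5.2 and 4.62 with phenformin. The 3 groups did not overlap in any of these 4 ratios, whereas PBS and phenformin libraries overlapped in the other 2 computed. MAFF over FOS was 0.896 to 1.32 in PBS libraries, 1.5 to 1.88 in metformin libraries and 0.778 and 0.956 in phenformin libraries. FOSL2 over JDP2 was 1.39 to 1.51 in PBS libraries, 2.38 to 2.71 in metformin libraries and 1.64 and 1.41 in phenformin libraries.

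**Figure D4:**
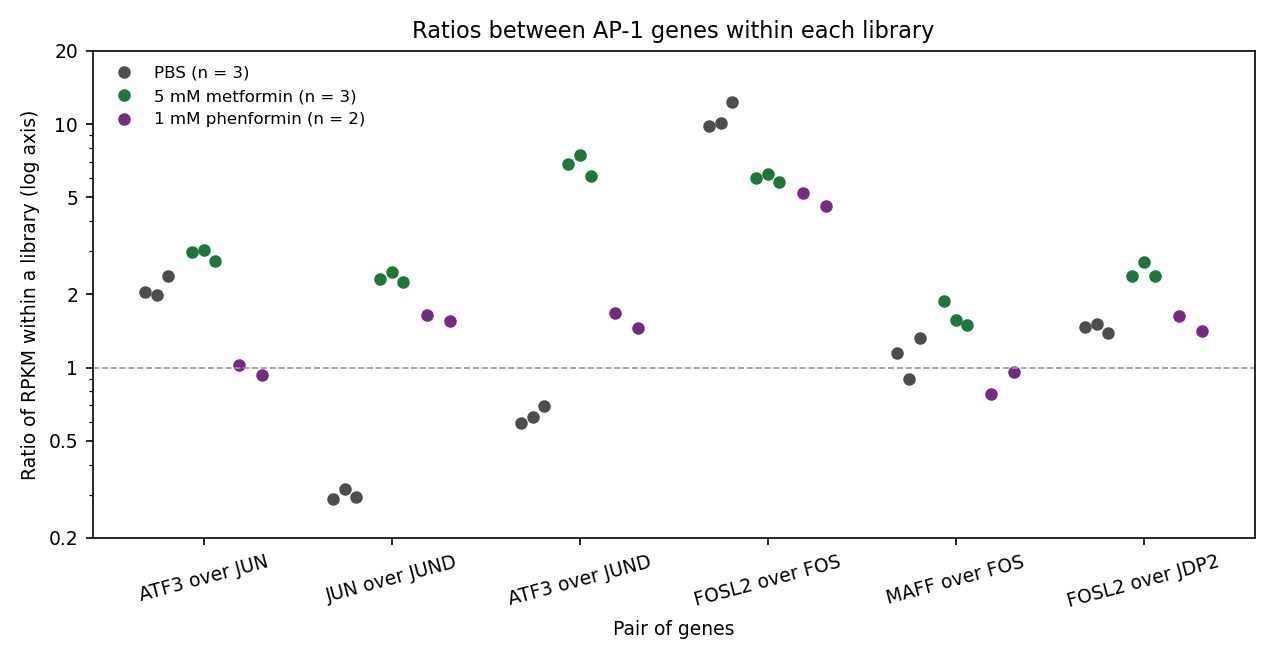
Ratio of the RPKM of one AP-1 gene to that of another within each library (log axis), with 1 dashed; circles are libraries, coloured by group. ATF3 over JUND lies at 0.595 to 0.698 in PBS libraries, at 6.12 to 7.49 in metformin libraries and at 1.45 and 1.68 in phenformin libraries.

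The genes whose pattern lay nearest to JUN were found by the Euclidean distance of log2(RPKM + 0.1), less the PBS mean of each gene, over the 8 libraries and 12172 genes. ID3, an inhibitor of helix-loop-helix factors, was the nearest at a distance of 0.57, with mean RPKM of 3.96 with PBS, 59 with metformin and 106 with phenformin. HSPA1B, an inducible heat shock chaperone, followed at 0.75 and went from 64.2 to 1449 and 2291 RPKM, although its near-identical copy HSPA1A makes its reads uncertain. PPP1R15A, which directs protein phosphatase 1 to the initiation factor eIF2, lay at 1.10 with 1.86, 33.8 and 34.9 RPKM. DNAJB1, a cochaperone of heat shock proteins, lay at 1.56 with 12, 375 and 273 RPKM. The distance of PPP1R3B, a glycogen-targeting phosphatase subunit, was 1.67, with 2.41, 37.3 and 34.3 RPKM.

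Other bZIP genes whose products can pair with AP-1 proteins moved in both directions. Of 18 listed, 13 were tested, and 9 rose and 2 fell with metformin, while 7 rose and 2 fell with phenformin. For this and the lists below, the shares of all genes higher and lower were 28.2% and 54.8% with metformin and 31.2% and 45.4% with phenformin. Their median log2 change was 1.41 and 0.63, against -0.30 and -0.15 for all genes. CREB5, a relative of ATF2, was at 0.0351 RPKM with PBS, 4.72 with metformin and 1.38 with phenformin. Like FOS and MAFF, it entered the metformin test only through the metformin libraries and had to differ there. MAFG, a small MAF protein like MAFF, rose from 5.47 to 33.8 and 17.9 RPKM (2.61 and 1.69 on the log2 scale), and, like MAFF, was lower with phenformin than with metformin (-0.91, limma adjusted p = 8.3e-06). DDIT3 (CHOP), a stress-induced C/EBP relative, rose from 57 to 335 and 371 RPKM. ATF4, the activator of amino acid stress genes that include ATF3, was at 228, 251 and 238 RPKM and did not pass (0.14, limma adjusted p = 0.11 with metformin). ATF4 passed with metformin after median-centring (0.33), on the TPM scale (0.40), after quantile normalization (0.21) and with limma-voom (0.18). On the TPM scale it also passed with phenformin (0.33).

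Kinase genes upstream of AP-1 moved in both directions. In the JNK cascade 13 of 14 genes were tested, and 6 rose and 4 fell with metformin, against 6 and 3 with phenformin. The median log2 changes were 0.08 and 0.14. One gene that fell with metformin, MAP3K7, was under 1 RPKM in every metformin library and had entered the test only through PBS. MAP3K1, a kinase at the top of the cascade, rose from 2.25 to 5.96 and 4.37 RPKM, and MAP3K5 (ASK1), a stress-activated one, from 2.19 to 4.28 and 2.94. MAP3K12 (DLK) fell from 2.72 to 1.24 RPKM with metformin and was at 2.26 with phenformin, which did not pass as deposited but passed with limma-voom (-0.24). MAPK8IP1, a scaffold of the cascade, was at 7.73, 8.17 and 8 RPKM and did not pass as deposited. It passed with metformin after median-centring (0.27), on the TPM scale (0.34) and after quantile normalization (0.19), and with phenformin on the TPM scale (0.31). Among the 13 ERK and p38 kinase genes, 6 rose and 3 fell with metformin, and 5 rose and 4 fell with phenformin, with median log2 changes of 0.09 and 0.14. MAP2K6, among those that fell with metformin, had likewise entered only through PBS. BRAF rose from 5.42 to 14 and 8.78 RPKM, and MAP2K3, which activates p38, from 14.6 to 24.7 and 28.4. MAP2K1 did not pass with metformin as deposited and fell from 15.3 to 10.8 RPKM with phenformin. Its metformin change passed as higher after median-centring (0.28), on the TPM scale (0.35), after quantile normalization (0.14) and with limma-voom (0.14). These splits depend on scaling, since after median-centring 9 JNK cascade genes were higher and 4 lower with metformin, and 9 and 3 of the ERK and p38 genes. With phenformin on the TPM scale 9 JNK cascade genes were higher and 1 lower, and 9 and 2 of the ERK and p38 genes. Phosphorylation was not measured.

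Factors known to bind the JUN and FOS promoters were mostly higher. Of 10 listed, 9 were tested, and 8 rose and 1 fell with metformin, while 6 rose and 1 fell with phenformin, with median log2 changes of 0.80 and 0.39. SRF, which binds the CArG box of FOS, rose from 9.63 to 66.4 and 41.1 RPKM (2.77 with limma adjusted p = 7.9e-08, and 2.08 with limma adjusted p = 1.7e-07). MEF2A, which binds the JUN promoter, rose from 6.62 to 21 and 8.71 RPKM, and ATF1, a CREB relative, from 16.4 to 40.7 and 33.1. In the direct comparison 7 of the 9 were lower with phenformin, against 25.6% of all genes, and none was higher. JUN itself was higher, and the part of these factors in the JUN level was not tested.

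Genes for the turnover of AP-1 mRNA and protein split evenly with metformin, where 4 of 11 rose and 4 fell, and with phenformin 6 rose and 4 fell. The median log2 changes were 0.12 and 0.16. ZFP36L1, which destabilizes AU-rich mRNAs, rose from 9.47 to 23 and 18.7 RPKM. Its relative ZFP36L2 was at 0.389, 2.64 and 2.09 RPKM, and entered the metformin test only through the metformin libraries, so it had to differ there. FBXW7, the ubiquitin ligase subunit that recognizes phosphorylated JUN, rose from 1.06 to 4.04 and 3.12 RPKM. ITCH, another JUN ligase, was at 9.31 and 10.1 RPKM with PBS and metformin, which did not pass as deposited but passed after median-centring (0.30), on the TPM scale (0.38), after quantile normalization (0.20) and with limma-voom (0.17), and it fell to 7.08 with phenformin, a fall that did not pass on the TPM scale (-0.13, limma adjusted p = 0.14). The split of higher to lower was 6 to 1 after median-centring and 7 to 0 on the TPM scale with metformin, and 6 to 1 on the TPM scale with phenformin.

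Many genes known as AP-1 targets in other cells were low. Of 26 found, 10 were tested, and 15 were under 1 RPKM in every library, among them the collagenase MMP1, PLAU, IL6 and CD44. With metformin 8 rose and 2 fell, and with phenformin 7 rose and 1 fell, with median log2 changes of 1.31 and 0.45. One of the 8, MMP13, entered only through the metformin libraries. With no filter on low values 21 were tested with metformin, and 11 were higher and 2 lower. Low genes of the list were thus among those called with metformin. For phenformin 22 were tested without the filter, and 7 were higher and 1 lower, the same counts as with it. DUSP1, a phosphatase that inactivates JNK and p38, rose from 1.06 to 213 and 117 RPKM (7.55 with limma adjusted p = 1.9e-08, and 6.68 with limma adjusted p = 1.6e-08). CCND1 (cyclin D1), which JUN is known to activate, fell from 30.8 to 5.08 and 9.54 RPKM (-2.57 with limma adjusted p = 1.3e-08, and -1.68 with limma adjusted p = 6.0e-08). MT2A, a metallothionein, rose from 34.9 to 169.7 RPKM with metformin and to 1602 RPKM with phenformin.

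Immediate early genes outside AP-1 rose more often than they fell. Of 15 listed, 8 were tested, and 6 rose and 2 fell with metformin, while 7 rose and 1 fell with phenformin, with median log2 changes of 2.05 and 1.97. CYR61 (CCN1), a matricellular protein and target of SRF, was at 0.846, 109 and 49.7 RPKM, and was another gene that entered the metformin test only through the metformin libraries. KLF6 rose from 2.44 to 35.6 and 27.9 RPKM and KLF4, also a zinc finger factor, from 2.59 to 31.5 and 18. The other 7 listed genes, which include EGR1, NR4A2 and IER3, stayed under 1 RPKM in every library. With no filter all 15 were tested, and 9 were higher and 3 lower with metformin and 9 and 2 with phenformin.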

How the data were processed

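RNA of C4-2 cells was sequenced as TruSeq mRNA libraries (50-bp reads) after exposure to PBS, metformin or phenformin, and groups followed the sample labels. Mapping and quantification by the authors used CLC Genomics Workbench 7.0 and, by the submitters' processing notes, GRCh37.p13, and the values they deposited are RPKM. The annotation release and any use of strand are not stated by these sources. No column was left unmatched to a sample. Read numbers of each gene, recovered from the steps between its RPKM values, came out whole, within 0.01 read, for all 25529 features above 0. The length of each gene was fitted in the same step, so for genes read in few libraries this outcome was largely built in. The numbers given are the smallest that fit.

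Tables were handled in Python 3.11.15 with pandas 2.3.3 and numpy 2.4.6, and models were fitted by limma 3.58.1 under R 4.3.3 (lmFit, eBayes with trend) on log2(RPKM + 0.1), two-sided, with p-values adjusted by Benjamini-Hochberg across every gene tested and a limit of 0.05. The metformin comparison used the 6 PBS and metformin libraries. Both phenformin comparisons came from a single fit of all 8, so that its 2 libraries share the spread of the other groups. The procedure was run on simulated reads with 200 changed genes and independently drawn libraries. Those settings differ from these data, in which most genes passed, so the run does not vouch for the calls. The limit of 3 reads given for genes at 0 covers counting error only.

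The AP-1 genes and the other gene lists were chosen with earlier results of these data known. Named genes were all 10 AP-1 genes, from each other list up to 3 with the largest change past the test with metformin and at most 1 that did not pass, the most highly expressed, and the 5 nearest to JUN, except that individual values of some listed genes are not reported here. MMP1, PLAU, IL6, CD44, EGR1, NR4A2 and IER3 were named after their values were seen, as examples of genes under 1 RPKM, as were MAP3K7, MAP2K6 and MMP13, which entered a test through 1 group. Promoter sequences are from RefSeq on GRCh38.p14, another build than that of the reads. No protein sequence was used here.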

Additional observations from a re-analysis of the deposited data

How the results depend on the processing

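Results were recomputed with pseudocounts of 0.01 and 1, without a filter on low values, after median-centring, on the TPM scale, after quantile normalization, with eBayes not using a trend, with limma-voom on recovered reads, with the replicate number as a block, with another set of libraries in the fit, with PBS replicate 1 reduced, and with each library left out in turn. Under each of these that was run, the 7 AP-1 genes were called higher than PBS with metformin and with phenformin. In phenformin against metformin 5 were called, or 6 on the TPM scale, after quantile normalization and without metformin replicate 3. The log2 change of JUN was at most 4.39 with metformin and 4.79 to 5.19 with phenformin, and that of ATF3 4.52 to 4.85 and 3.66 to 4.07. Leaving out single libraries gave 9241 to 9793, 8397 to 9434 and 6577 to 7863 genes called in the 3 comparisons, against 9729, 9313 and 7923. Where 1 phenformin library was left, it was assumed to vary like the other groups.

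The split of calls moved with scaling. With metformin 3302 genes were higher and 6427 lower as deposited, against 4229 and 5420 after median-centring, 4591 and 5021 on the TPM scale and 4396 and 5072 after quantile normalization. For phenformin against PBS 3792 and 5521 became 5317 and 4052 on the TPM scale, and for phenformin against metformin 4810 and 3113 became 4043 and 3886 after median-centring and 3661 and 3920 after quantile normalization.

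Same-numbered libraries showed no shared deviation from their group means (correlations of -0.075 to 0.0064). Deviations from a mean of 2 to 3 libraries are tied to each other, so these values cannot exclude a pairing. With the replicate block 9582, 8906 and 7312 genes were called in the 3 comparisons, and 7, 7 and 5 AP-1 genes, so the block changed no count of AP-1 calls. Depth limits JUNB, FOSB and FOSL1, with 0 to 2 reads a library. With 2 to 3 libraries a group, an exact permutation test of a single gene cannot reach 0.05, and the small adjusted p-values rest on the spread shared across genes.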
